A study of Homo sapiens with 9 samples.

Results

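The MYC, MAX and MXD network is a family of basic helix-loop-helix leucine zipper proteins, and its expression was followed under DIG-MSK in the ovarian carcinoma line A2780. The members were 10 genes, MYC, MYCN, MYCL, MAX, MXD1, MXD3, MXD4, MXI1, MNT and MGA, found as the gene probes whose accession is a RefSeq transcript of one of them. They had 20 probes among the 42405 gene probes of the array, which stand for 35010 genes or unnamed transcripts. Of these 20 probes, 18 passed the filter on dim signals, and they covered 9 of the 10 genes. The probe of MYCN (A_24_P94402, NM_005378) was not well above background on any of the 9 arrays, with intensities between 4.51 and 9.96, so no change is given for this gene.

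Proteins of this network bind the E-box of DNA as pairs in which MAX is the common partner. Pairs of MAX with MYC, MYCN or MYCL recruit histone acetyltransferases and activate genes of growth and metabolism, whereas pairs of MAX with the MXD proteins, MXI1 or MNT recruit SIN3 and histone deacetylases and repress many of the same genes. MGA, the largest member, brings MAX into a Polycomb-type repressor complex, and MYC itself is frequently amplified or overexpressed in ovarian carcinoma.

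A2780 is an established line derived from a human ovarian carcinoma, and DIG-MSK is an analogue of mithramycin A, an antibiotic with affinity for C/G-rich stretches of DNA. The groups were 3 cultures without DIG-MSK, 3 given 8 nM DIG-MSK and 3 given 80 nM DIG-MSK, all harvested at 24 h, and the RNA of each culture was hybridized to its own 1-color array. All 9 arrays come from this 1 cell line, and no normal ovarian cells were compared. RNA was taken from whole cultures, so fewer cells with a transcript and less transcript per cell cannot be told apart.

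A level is the log2 of the processed intensity of a probe minus the 75th percentile of the gene spots of its array, and each gene is represented by its brightest probe. Levels of different genes come from different probes and are not compared with each other. Between 24814 and 27151 probes were well above background on an array, and correlations between arrays of 1 group lay between 0.989 and 0.996 across genes. Slide 1 carried the untreated arrays together with those at 8 nM, and slide 2 carried those at 80 nM, so a slide effect and an effect of 80 nM cannot be told apart. Negative control spots had mean net signals of 31.1 to 38.6 on the first slide and of 22.1 to 22.7 on the other. Of the markers of the label, the keratins KRT7, KRT8 and KRT18 and the mesenchymal VIM and CDH2 were well above background on all 9 arrays, whereas CDH1, PAX8, WT1, MUC16, MSLN and the mesenchymal FN1 did not pass the filter. The mean level of CDH2 was 0.19 without DIG-MSK and -2.14 at 80 nM. KRT19 and EPCAM were also well above background on all 9 arrays, at low levels, with untreated means of -3.60 and -3.82. Of 6 markers of other cells only PTPRC passed, likewise on all 9 arrays, with an untreated mean of -4.17.

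Calls required a change of at least 1.5-fold (up-regulated) or at most 0.67-fold (down-regulated) and an adjusted p under 0.05 in limma (Benjamini-Hochberg adjustment over 21832 genes). At 8 nM, 2 of the 9 tested members were up-regulated, MYCL and MXD4, and 0 were down-regulated, where 5.13% of all genes tested were called, 3.71% up and 1.42% down. At 80 nM, 4 members were down-regulated, MYC, MXI1, MNT and MGA, and 0 were up-regulated, where 34.3% of all genes were called, 18.4% up and 15.9% down. Between 80 nM and 8 nM, MYC, MYCL, MXI1 and MNT were lower at 80 nM and 0 members were higher, where 32.8% of all genes were called, 18.9% higher and 13.9% lower. At an unadjusted limma p under 0.05 with no fold limit, 0 members were lower at 8 nM, 2 were higher at 80 nM and 1 was higher at 80 nM than at 8 nM. The share of all genes at this unadjusted rule was not counted, here or for the lists below. At the adjusted p with no fold limit the shares of all genes in these directions were 5.72%, 33.3% and 34.6%. The median log2 change of the 9 members was 0.05 at 8 nM, 0.10 at 80 nM and -0.56 between the concentrations, and over all genes it was -0.06, 0.08 and 0.12. The first 2 comparisons share the untreated arrays, and the third uses the treated arrays of both. Each of the 9 probes used was well above background on all 9 arrays, so no member passed the filter only through the group in which it was high.

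**Figure D1:**
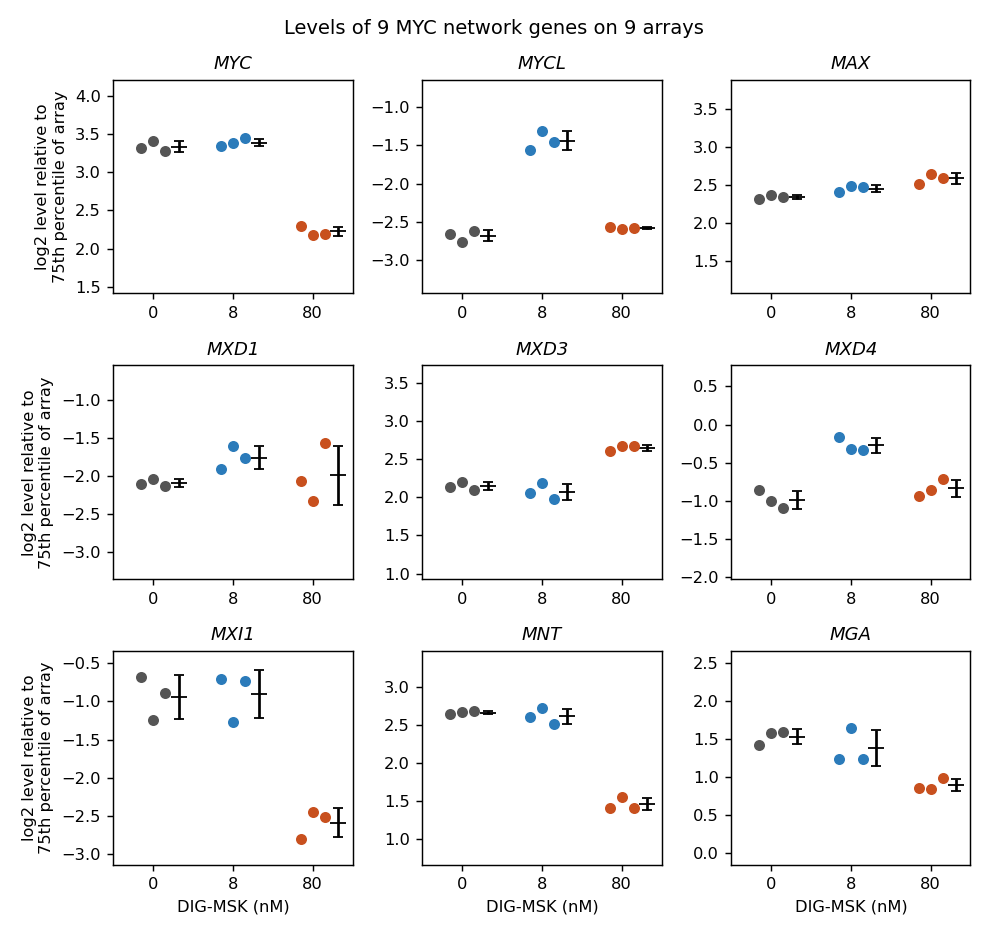
Level of each of the 9 measured members on the 9 arrays, as log2 relative to the 75th percentile of the array, against the concentration of DIG-MSK. Points are single arrays, and bars are the mean and SD of 3; every panel spans 2.8 log2 units, and the 80 nM points of MYC, MXI1, MNT and MGA lie below all others in their panel, whereas the 8 nM points of MYCL and MXD4 lie above.

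MYC encodes the principal activating member of the family. Its probe (A_23_P215956, NM_002467), which is spotted 10 times on each array, gave 3.32, 3.41 and 3.28 on the untreated arrays, 3.35, 3.38 and 3.44 at 8 nM, and 2.30, 2.18 and 2.19 at 80 nM. The untreated and the 8 nM arrays overlapped, and the 3 arrays at 80 nM lay below all the others. As means these were 3.34 ± 0.07, 3.39 ± 0.05 and 2.22 ± 0.06 (SD, n = 3 each), and the processed intensity ranged from 8315 to 11675 without DIG-MSK and from 4053 to 4883 at 80 nM. MYC fell by 1.11 on the log2 scale at 80 nM, to 0.462-fold of untreated (SE 0.07, 95% interval -1.27 to -0.95, adjusted p = 4.99e-06). At 8 nM the change was 0.05 (95% interval -0.11 to 0.21, adjusted p = 0.643). The change between the concentrations was -1.16 (adjusted p = 3.94e-06). Spots of this probe on the same array had an SD between 0.023 and 0.085, so the spread within an array was small beside the change at 80 nM.

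MYCL encodes the MYC relative first described in lung cancer. One probe (A_33_P3306068, NM_001033081) gave -2.66, -2.77 and -2.63 on the untreated arrays, -1.55, -1.31 and -1.45 at 8 nM, and -2.57, -2.60 and -2.58 at 80 nM. All 3 arrays at 8 nM stood apart above the other 6, and those at 80 nM lay just above the untreated ones. MYCL rose at 8 nM by 1.25, or 2.37-fold (SE 0.08, adjusted p = 8.92e-05), and the change at 80 nM was 0.10 (95% interval -0.08 to 0.29, adjusted p = 0.294). It was lower at 80 nM than at 8 nM by 0.453-fold (log2 change -1.14, adjusted p = 9.54e-06). These are low signals, with intensities between 131 and 165 without DIG-MSK and between 336 and 428 at 8 nM. The other probe of MYCL (A_23_P160668, NM_005376), for another transcript, stayed near background on all 9 arrays.

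MAX encodes the common partner of the MYC, MXD, MNT and MGA proteins. The probe used (A_23_P205549, NM_145113) gave 2.31, 2.37 and 2.35 without DIG-MSK, 2.40, 2.49 and 2.47 at 8 nM, and 2.51, 2.65 and 2.60 at 80 nM. The 3 groups did not overlap, though they were close to each other. The change at 80 nM, 0.24 or 1.18-fold, passed the test (SE 0.07, adjusted p = 0.0124) and was below the fold limit. This result rested on 1 array, since without replicate 2 at 80 nM it was 0.21 with an adjusted p of 0.0522. It turned to -0.036 (adjusted p = 0.922) when arrays were scaled to the spike-in probes, a setting that moved the median of all genes at 80 nM from 0.08 to -0.20.

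Among the MXD genes, whose products antagonize MYC by pairing with MAX, MXD3 and MXD4 gave different patterns. MXD3 (A_33_P3297255, NM_031300), which is expressed mainly in proliferating cells, gave 2.14, 2.20 and 2.09 without DIG-MSK, 2.05, 2.19 and 1.98 at 8 nM, and 2.60, 2.67 and 2.68 at 80 nM. Its 80 nM arrays lay above the other 6, which overlapped. The change at 80 nM was 0.51, or 1.42-fold (SE 0.07, adjusted p = 0.000564), and against 8 nM it was 0.58, or 1.49-fold (adjusted p = 0.000300), both just below the limit of 1.5-fold. With spike-in scaling the change at 80 nM was 0.23 and no longer passed (adjusted p = 0.452). With scaling to the median, the change against 8 nM was 0.59 (limma adjusted p = 0.00106) and was called.

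MXD4 (A_23_P423695, NM_006454) gave -0.86, -1.003 and -1.09 on the untreated arrays, -0.16, -0.32 and -0.33 at 8 nM, and -0.93, -0.86 and -0.71 at 80 nM. The 8 nM arrays lay above the other 6, and the untreated and 80 nM arrays overlapped. MXD4 rose at 8 nM by 0.71, or 1.64-fold (SE 0.09, adjusted p = 0.00249). With spike-in scaling the estimate was 0.79 and did not pass (adjusted p = 0.140). The change at 80 nM was 0.15 (95% interval -0.07 to 0.37, adjusted p = 0.201), and between the concentrations it was -0.56, or 0.677-fold, which passed the test (adjusted p = 0.00116) and lay just outside the fold limit of 0.67.

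MXD1 encodes MAD, a member induced when many cell types differentiate. The probe used (A_24_P379750, NM_002357) gave -2.10, -2.03 and -2.13 without DIG-MSK, -1.90, -1.61 and -1.76 at 8 nM, and -2.07, -2.33 and -1.56 at 80 nM. The 8 nM arrays lay above the untreated ones, while the 80 nM arrays spread over both. No comparison passed the test, with changes of 0.33 at 8 nM (95% interval -0.07 to 0.74, adjusted p = 0.239) and 0.10 at 80 nM (95% interval -0.31 to 0.51, adjusted p = 0.650). The change from 8 nM to 80 nM, -0.23 (adjusted p = 0.290), was -0.44 without replicate 3 at 80 nM and then passed (adjusted p = 0.0183).

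MXI1 encodes MAX interactor 1, also known as MXD2. The brightest of its 3 probes (A_33_P3383029, NM_130439) gave -0.68, -1.25 and -0.89 without DIG-MSK, -0.71, -1.26 and -0.73 at 8 nM, and -2.81, -2.45 and -2.52 at 80 nM. Untreated and 8 nM arrays overlapped, and the 80 nM arrays lay far below both. By this probe MXI1 fell by 1.65 at 80 nM, to 0.318-fold (SE 0.20, adjusted p = 0.00017), with a change of 0.04 at 8 nM (95% interval -0.41 to 0.49, adjusted p = 0.914). The other probes of the gene gave other directions, as described with the probes.

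MNT encodes a repressor that is present in cycling and resting cells alike and competes with MYC for MAX. Its brighter probe (A_23_P341443, NM_020310) gave 2.64, 2.66 and 2.68 without DIG-MSK, 2.60, 2.72 and 2.51 at 8 nM, and 1.41, 1.56 and 1.41 at 80 nM. The 80 nM arrays lay below the other 6, which overlapped. MNT fell by 1.198 at 80 nM, to 0.436-fold (SE 0.08, adjusted p = 5.45e-06), and the change at 8 nM was -0.05 (95% interval -0.22 to 0.13, adjusted p = 0.695). By the probes used, MYC and its antagonist MNT gave changes of -1.11 and -1.198 at 80 nM, whereas the second probe of MNT gave -0.64.

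MGA (A_23_P37654, NM_001164273) gave 1.42, 1.58 and 1.59 without DIG-MSK, 1.24, 1.65 and 1.24 at 8 nM, and 0.86, 0.85 and 0.99 at 80 nM. The 80 nM arrays lay below the other 6, which overlapped. MGA fell by 0.63 at 80 nM, to 0.646-fold (SE 0.12, adjusted p = 0.00232), just inside the limit of 0.67. Its call was lost with normexp background correction (-0.55) and with the log2 table of the authors (-0.58), which passed the test short of the fold limit, so 3 members were called there. The change at 8 nM was -0.15 (adjusted p = 0.413), and without replicate 2 at 8 nM it was -0.29 and passed the test (adjusted p = 0.0454). Between the concentrations the change was -0.48 (adjusted p = 0.00971), short of the fold limit.

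**Figure D2:**
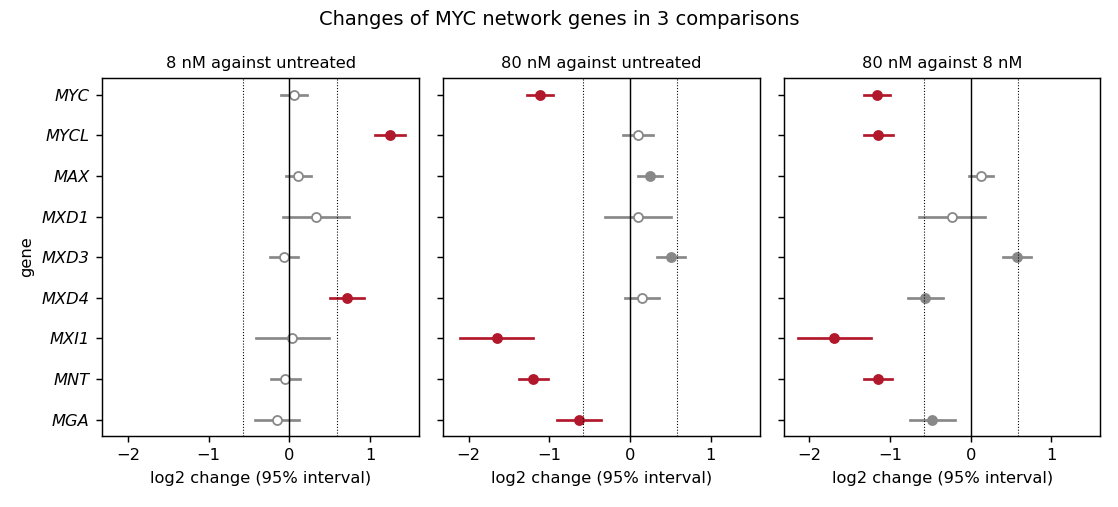
Log2 change of each measured member in the 3 comparisons, with 95% intervals from limma. Red marks called genes, filled points an adjusted p under 0.05, and dotted lines the limits of 1.5-fold and 0.67-fold; MYC, MXI1 and MNT are called at 80 nM against both other groups, and MYCL and MXD4 are called at 8 nM.

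Groups that do not overlap at all were counted as a check that does not depend on the model. At 8 nM, 4 of the 9 members had all 3 arrays above the untreated arrays, MYCL, MAX, MXD1 and MXD4, and 0 had them all below, where 34.2% of all genes did not overlap. At 80 nM, 3 members were above, MYCL, MAX and MXD3, and 4 were below, MYC, MXI1, MNT and MGA, where 72% of all genes did not overlap. Against 8 nM, 2 were above and 6 below, where 64.8% of all genes did not overlap. With the adjusted p alone and no fold limit, 2 members passed at 8 nM, both higher, where 13.6% of all genes passed, 7.91% higher and 5.72% lower. At 80 nM 6 passed, 2 higher and 4 lower, where 59% of all genes passed, 33.3% higher and 25.7% lower. Between the concentrations 7 passed, 1 higher and 6 lower, where 57.6% of all genes passed, 34.6% higher and 22.9% lower. Without regard to direction, the shares of the members at 80 nM were near those of all genes.

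Several genes had more than 1 probe, and the probes were tested in a fit over all 26457 probes that passed. For MNT and MGA the probes gave 1 direction at 80 nM. The second probe of MNT (A_33_P3246733, NM_020310) fell by 0.64 at 80 nM (adjusted p = 0.000314), less than the first, and changed by -0.34 at 8 nM (adjusted p = 0.0336). Between the concentrations this probe changed by -0.30 (adjusted p = 0.0156), short of the fold limit. The second probe of MGA (A_33_P3330323, NM_001080541) fell by 0.83 at 80 nM (adjusted p = 0.000291) and changed by -0.45 at 8 nM (adjusted p = 0.0292). For both genes the second probe passed the test at 8 nM without reaching the fold limit, and the first did not pass. The probes of MXD4 and of MXD3 also gave 1 direction where they passed. The second probe of MXD4 (A_24_P234732) rose by 0.72 at 8 nM (adjusted p = 0.00244), next to 0.71 for the first, and it also passed at 80 nM with 0.31 (adjusted p = 0.0208). A dim second probe of MXD3 (A_24_P417706, NM_001142935), well above background on 7 of 9 arrays, changed by 0.48 at 80 nM (adjusted p = 0.004).

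For MXI1 and MAX the probes gave opposite directions at 80 nM, and for MXD1 1 probe fell while the other did not pass the test. Another MXI1 probe listed under the same transcript (A_23_P161399, NM_130439) gave -2.63, -2.20 and -2.35 without DIG-MSK, -1.60, -1.86 and -1.49 at 8 nM, and -1.87, -1.78 and -1.85 at 80 nM. Here the arrays of both treated groups lay above the untreated ones. It rose at 8 nM by 0.74 (adjusted p = 0.00889) and changed by 0.56 at 80 nM (adjusted p = 0.00611), where the brightest probe fell by 1.65. The third probe (A_33_P3263902, NM_005962) changed by -0.55 at 80 nM and did not pass (adjusted p = 0.205), so the call of MXI1 at 80 nM holds for 1 of its 3 probes.

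The dimmer MXD1 probe (A_23_P408094, NM_002357) gave -2.19, -2.99 and -2.66 without DIG-MSK, -2.66, -2.55 and -2.87 at 8 nM, and -4.27, -3.61 and -3.92 at 80 nM. Its 80 nM arrays lay below all the others. It fell by 1.32 at 80 nM (SE 0.23, adjusted p = 0.00133), where the probe used for the gene changed by 0.10. For MAX, the probe of NM_197957 (A_23_P151662) changed by -0.44 at 80 nM (adjusted p = 0.014) and that of NM_145114 (A_23_P436138) by 0.17 (adjusted p = 0.0787), against 0.24 for NM_145113. Taking the mean of the probes of a gene gave -0.0061 for MAX (adjusted p = 0.946), -0.61 for MXD1 (adjusted p = 0.00549) and -0.55 for MXI1 (adjusted p = 0.0390) at 80 nM. With that mean MXD1 was called and MXI1 was not, so the count of 4 members covers different genes. The result for these 3 genes at 80 nM differs with the probe, and whether the probes read different transcripts was not tested.

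**Figure D3:**
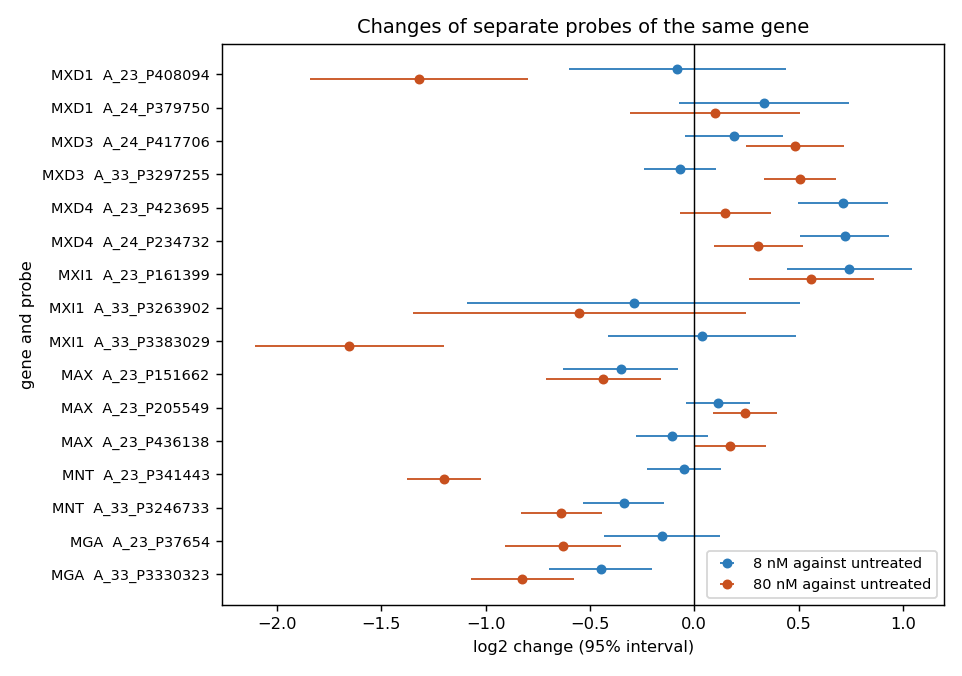
Log2 change of every probe that passed, for the 7 members with more than 1 such probe, at 8 nM and 80 nM against untreated with 95% intervals from limma. The 80 nM points of the MNT and MGA probes all lie left of 0, whereas those of MXI1 range from -1.65 to 0.56 and those of MXD1 from -1.32 to 0.10.

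The order of the levels can be read from these comparisons. By the probes used, 80 nM was lowest for MYC, MXI1, MNT and MGA, and untreated and 8 nM did not differ in the test. For MYCL and MXD4, 8 nM was highest. The difference between untreated and 80 nM did not pass the test for either, although the 3 arrays of MYCL at 80 nM lay above the untreated ones and the second probe of MXD4 passed. MXD3 was highest at 80 nM, and the other groups did not differ in the test. For MAX, untreated and 80 nM differed, with 8 nM between them, and for MXD1 no neighbours did. No member was called in the same direction at both concentrations against untreated.

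**Figure D4:**
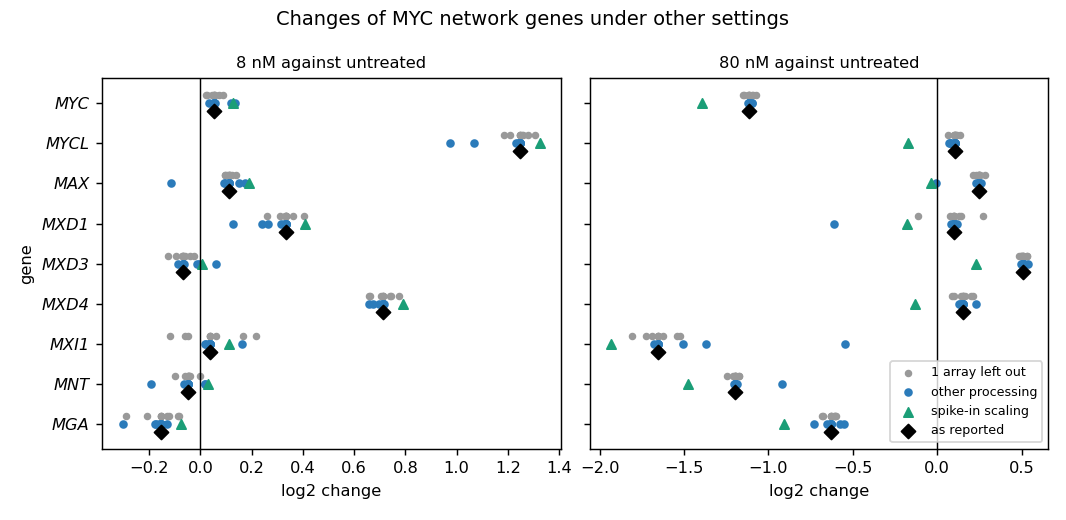
Log2 change of each measured member under the reported setting (diamond), other processing (blue), spike-in scaling (triangle) and with 1 array left out (gray), at 8 nM and at 80 nM against untreated. The points of MYC, MXI1, MNT and MGA stay left of 0 at 80 nM and those of MYCL and MXD4 right of 0 at 8 nM, whereas those of MAX, MXD1, MYCL and MXD4 at 80 nM lie on both sides.

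The windows from 250 bases before to 50 bases after the annotated gene starts were examined for the GC box, the letters GGGCGG, which is read by Sp1 and related factors, and for the E-box, the letters CACGTG, which is read by the network itself. Both strands were searched, in RefSeq promoter sequences of GRCh38.p14. The table held 14 windows for 9 of the 10 members, and the one of MYC was not analysed here. At least 1 GC box was present in 11 of the 14 windows, beside 45.0% of all 35116 windows. Each of the 9 genes had one in at least 1 window, but MAX, MXI1 and MGA have several windows. The share of all genes with a GC box in any window was not counted. The E-box was present in 2 of the 14, those of MXD4 and MNT, and in 7.26% of all windows. The looser letters CANNTG, which include the E-box, were in 68.7% of all windows. The windows of the members held between 55% and 76% G and C, and the median over all windows was 58.7%. A match is a description of the letters, not a measured site.

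The bases upstream of the first listed start are shown for MNT and MXI1, called lower at 80 nM, and for MYCL and MXD4, which rose at 8 nM. For MXI1 the call is that of its brightest probe, and another of its probes changed by 0.56 at 80 nM (limma adjusted p = 0.00611). GC boxes, on either strand, and E-boxes are in capitals. Position -1 is the base before the start, and each match is placed by its first letter.
MNT upstream window, chr17:2401061-2401310, minus strand: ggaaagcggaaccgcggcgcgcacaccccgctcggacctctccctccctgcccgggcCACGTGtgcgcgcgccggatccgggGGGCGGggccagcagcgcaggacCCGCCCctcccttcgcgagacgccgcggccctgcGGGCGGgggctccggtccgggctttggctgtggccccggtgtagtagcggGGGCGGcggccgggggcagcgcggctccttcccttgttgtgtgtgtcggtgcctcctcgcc
MXI1 upstream window, chr10:110207355-110207604, plus strand: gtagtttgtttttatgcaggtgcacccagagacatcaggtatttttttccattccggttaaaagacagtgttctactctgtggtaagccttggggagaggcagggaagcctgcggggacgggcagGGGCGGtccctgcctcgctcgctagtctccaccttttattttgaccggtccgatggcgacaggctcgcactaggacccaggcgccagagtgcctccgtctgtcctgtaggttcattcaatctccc
MYCL upstream window, chr1:39901918-39902167, minus strand: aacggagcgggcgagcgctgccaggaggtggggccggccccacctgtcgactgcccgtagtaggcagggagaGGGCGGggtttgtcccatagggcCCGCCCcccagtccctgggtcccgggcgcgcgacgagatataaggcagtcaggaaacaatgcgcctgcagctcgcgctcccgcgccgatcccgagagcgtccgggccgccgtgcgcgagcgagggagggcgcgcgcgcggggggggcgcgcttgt
MXD4 upstream window, chr4:2262110-2262359, minus strand: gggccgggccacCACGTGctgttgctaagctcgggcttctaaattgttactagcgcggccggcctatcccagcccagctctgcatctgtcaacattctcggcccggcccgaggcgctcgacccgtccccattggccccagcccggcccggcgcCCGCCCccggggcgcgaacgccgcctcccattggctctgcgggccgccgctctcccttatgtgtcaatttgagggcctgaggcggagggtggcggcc
MNT has 4 GC boxes, at -168, -145, -111 and -61, and an E-box at -193. At least 3 GC boxes were present in 15.8% of all windows. MXI1 has 1 GC box at -125 before this start, and its 2 further starts have 4 each in their windows. MYCL has 2 GC boxes, at -178 and -155, and no E-box in this window. MXD4 has 1 GC box, at -97, and an E-box at -238. MGA, which also fell at 80 nM, has 0 GC boxes in the window of its first listed start and 1 in 1 of its 2 further windows.

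Genes that act with the network were followed as lists, and their counts stand beside 5.13% of all genes called at 8 nM (3.71% up, 1.42% down) and 34.3% at 80 nM (18.4% up, 15.9% down). Under spike-in scaling, 4983 of all 21832 genes were called lower and 1807 higher at 80 nM. Between the concentrations, 5079 were called lower and 1298 higher at that setting. In the MLX branch, where MLX takes the place of MAX and pairs with MLXIP or the glucose-responsive MLXIPL, 1 of 3 genes was up-regulated at 8 nM and 1 at 80 nM, and 0 were down-regulated (at an unadjusted limma p under 0.05 and no fold limit, 0 at 8 nM and 1 at 80 nM). The gene was MLXIPL (ChREBP) both times, with mean levels of -2.27 without DIG-MSK, -1.39 at 8 nM and -1.34 at 80 nM. Its arrays ranged from -2.37 to -2.20, from -1.51 to -1.27 and from -1.38 to -1.30, so neither treated group overlapped with untreated. Its changes were 0.88 (adjusted p = 0.000563) and 0.93 (adjusted p = 3.92e-05). The list medians were -0.07 at 8 nM and 0.23 at 80 nM.

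Of 14 MYC coactivators and recruited chromatin factors, 0 were called at 8 nM and 2 at 80 nM, with medians of -0.06 and 0.0033. At 8 nM, 2 passed limma's adjusted p without the fold limit, both lower, beside 5.72% of all genes that were lower. An unadjusted limma p under 0.05 was reached by 5. CREBBP, a histone acetyltransferase, fell by 1.19 at 80 nM (adjusted p = 2.81e-05), whereas EP400, the ATPase of the TIP60 complex, rose by 0.87 (adjusted p = 0.000671). Between the concentrations, these 2 genes were called in the same directions, and ZBTB17 (MIZ1), through which MYC represses genes, was lower at 80 nM by -0.70 (adjusted p = 0.000355). With spike-in scaling, 0 genes of the list were higher and 3 were lower in both of these comparisons, so the call of EP400 was lost. Without replicate 2 at 8 nM, 1 gene of the list was called at 8 nM, lower than untreated.

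Of 10 corepressors of the MXD proteins and MNT, 1 was called at 8 nM and 3 at 80 nM, with medians of -0.02 and -0.31. At 80 nM NCOR1, a platform for histone deacetylases, fell by 1.19 (adjusted p = 1.09e-05) and SAP30, a SIN3 subunit, fell by 0.84 (adjusted p = 0.000126). HDAC1, a deacetylase of the same complexes, rose by 0.59 at 80 nM (adjusted p = 5.76e-05), just above the limit of 1.5-fold. Without replicate 3 of the untreated arrays, 2 genes of the list were called at 80 nM and 0 were higher, so the call of HDAC1 was lost. With spike-in scaling, 6 of the 10 were called at 80 nM, all lower, and 0 were higher. Of all 21832 genes, 4983 were called lower and 1807 higher at this setting.

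Of 10 genes of the MGA complex, 0 were called at 8 nM or at 80 nM, with medians of -0.06 and -0.04. Without the fold limit, 1 passed limma's adjusted p at 8 nM and 5 at 80 nM, beside 13.6% and 59% of all genes. An unadjusted limma p under 0.05 was reached by 2 and 6. One gene was called at 80 nM without replicate 2 of the untreated arrays or without replicate 3 at 80 nM, and also with spike-in scaling, and 2 were called with the mean of the probes of a gene, all of them lower. With that mean, 1 gene was also called at 8 nM, lower. Between the concentrations TFDP1, the partner of E2F proteins, was higher at 80 nM by 0.79 (adjusted p = 3.33e-05). MGA fell at 80 nM while 0 of these 10 listed genes were called.

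Of 8 measured genes that control the turnover of the MYC protein, 2 were called at 8 nM and 1 at 80 nM. FBXW7, the ubiquitin ligase subunit that recognizes phosphorylated MYC, rose by 0.78 at 8 nM (adjusted p = 0.00557) and by 0.69 at 80 nM (adjusted p = 0.00161). SKP2, another ligase subunit with MYC as a substrate, fell by 0.81 at 8 nM (adjusted p = 0.00527), and it was higher at 80 nM than at 8 nM by 0.61 (adjusted p = 0.00353). With the replicate number as a block on the arrays of slide 1, SKP2 did not pass (adjusted p = 0.0632) and FBXW7 did (adjusted p = 0.0394), and with spike-in scaling 0 of the 8 were called at 8 nM. The call of FBXW7 at 80 nM was lost with normexp background correction, with spike-in scaling and with the log2 table of the authors, each of which gave 0 of 8. The call of SKP2 between the concentrations was lost under the same 3 settings and without replicate 2 at 8 nM. The list had medians of -0.13 and -0.0025 at the lower and the higher concentration.

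Of 32 genes known to be activated by MYC, mostly genes of ribosome biogenesis and nucleotide synthesis, 3 were down-regulated at 8 nM and 0 were up-regulated, while at 80 nM, where MYC fell, 2 were down-regulated and 1 was up-regulated. The medians of the list were -0.17 at 8 nM and -0.09 at 80 nM, beside -0.06 and 0.08 over all genes. At 80 nM, TERT, the telomerase subunit, fell by 1.597 (adjusted p = 1.97e-05) and RCC1, the exchange factor of RAN, fell by 1.29 (adjusted p = 2.1e-05). CDK4, a kinase of the G1 phase, rose by 0.64 at 80 nM (adjusted p = 0.000179). With the adjusted p alone, 17 of the 32 passed at 80 nM, 9 higher and 8 lower, beside 33.3% of all genes higher and 25.7% lower. At 8 nM 7 of the 32 passed, all lower, beside 5.72% of all genes that were lower. The count at 80 nM was 5, with 4 lower, under normexp and under the log2 table of the authors, and 8, all lower, with spike-in scaling. Of all 21832 genes, spike-in scaling gave 4983 lower and 1807 higher.

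The 3 genes of this list that fell at 8 nM were RCC1 (log2 change -0.71, adjusted p = 0.00447), BOP1, a factor of ribosome assembly (-0.59, adjusted p = 0.00258), and TERT (-0.59, adjusted p = 0.0208). With the replicate block on the slide 1 arrays RCC1 passed (adjusted p = 0.0478), and BOP1 (adjusted p = 0.0567) and TERT (adjusted p = 0.103) did not. The count at 8 nM was also 1 with quantile normalization, with the log2 table of the authors, and without replicate 1 or replicate 3 at 8 nM, and it was 0 with spike-in scaling. Between the concentrations CDK4 was higher at 80 nM by 0.70 (adjusted p = 0.000124), and the changes of TERT and RCC1 were -1.01 (adjusted p = 0.000282) and -0.59 (adjusted p = 0.00175).

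Of 10 measured genes known to be repressed by MYC, 2 were up-regulated at 8 nM and 6 at 80 nM, with 2 down-regulated at 80 nM and 0 at 8 nM. The shares over all genes were 3.71% up at 8 nM, and 18.4% up and 15.9% down at 80 nM. Of the 6, NDRG1 passed the filter on dim signals only through its 80 nM arrays, where it was high. The medians were 0.19 and 0.67. CDKN1A, the cyclin-dependent kinase inhibitor p21, rose by 1.82 at 8 nM (adjusted p = 0.000215) and by 1.90 at 80 nM (adjusted p = 1.21e-05), and GADD45A, a stress gene of growth arrest, rose by 1.16 at 8 nM (adjusted p = 0.000228). At 80 nM THBS1, which encodes thrombospondin 1, rose by 2.58 (adjusted p = 1.75e-07), its arrays ranging from 1.59 to 1.80, and from -0.94 to -0.87 without DIG-MSK. HMOX1, the heme oxygenase, fell by 1.46 at 80 nM (adjusted p = 0.000437). Between the concentrations, 3 genes of the list were higher at 80 nM and 2 lower, and the largest changes were those of THBS1 (2.47), HMOX1 (-1.52) and NDRG1 (0.81). NDRG1 was well above background on 2 of the 3 untreated arrays and on 2 of the 3 at 8 nM, so its low levels are uncertain. Under normexp and under the log2 table of the authors, 1 was higher there and 2 were lower, and with spike-in scaling 1 was higher and 3 were lower.

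TXNIP and ARRDC4 are arrestin-like genes activated by MLXIP and MLX. TXNIP gave -0.01, -0.33 and -0.44 without DIG-MSK, 0.44, 0.64 and 0.39 at 8 nM, and -1.43, -1.73 and -1.47 at 80 nM. The 3 groups did not overlap, with 8 nM highest and 80 nM lowest. TXNIP rose by 0.75 at 8 nM (adjusted p = 0.00927) and fell by 1.28 at 80 nM (adjusted p = 8.44e-05), and the difference between the concentrations was -2.03 (adjusted p = 6.68e-06). With the replicate block on slide 1 the change at 8 nM did not pass (adjusted p = 0.0597), nor did it with spike-in scaling (0.83, adjusted p = 0.0795).

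ARRDC4 gave -3.71, -3.75 and -3.74 without DIG-MSK and -3.27, -3.16 and -3.16 at 8 nM, and on the 3 arrays at 80 nM it was not well above background. The 8 nM arrays lay above the untreated ones, and the change, 0.54, passed the test without reaching the fold limit (adjusted p = 0.0126). At 80 nM only a bound can be given, the mean of the brighter group against the mean, over the 80 nM arrays, of the higher of the lowest signal well above background and the signal of the probe itself. ARRDC4 was at least 4.70-fold lower at 80 nM than without DIG-MSK (adjusted p = 2.3e-08) and at least 6.83-fold lower than at 8 nM (adjusted p = 1.2e-08). These adjusted p belong to the limma fit of the measured signals, not to the bounds, and the gene passed the filter through the groups in which it was high.

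**Figure D5:**
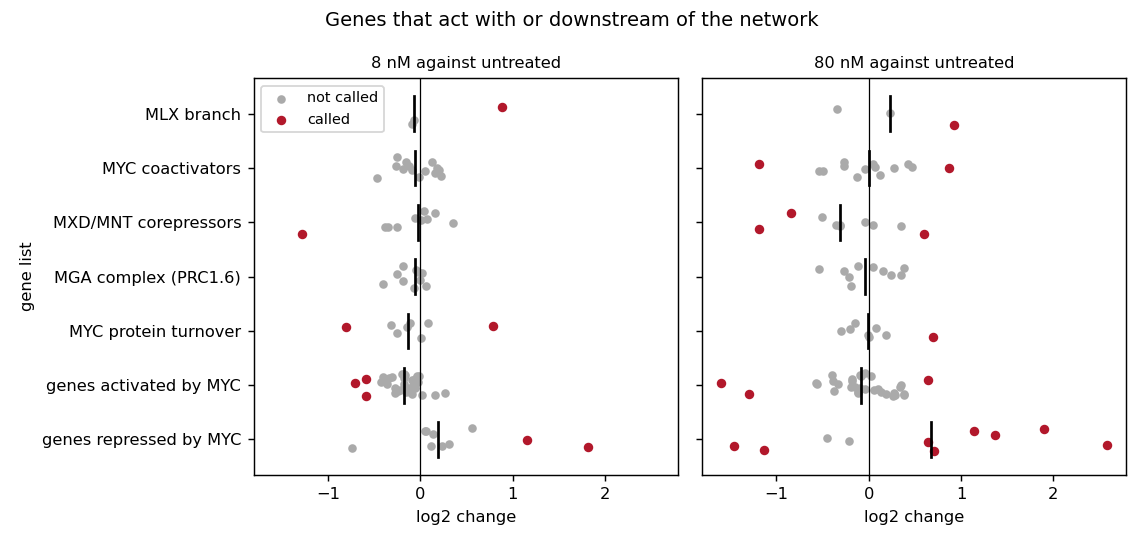
Log2 change at 8 nM and at 80 nM against untreated of the measured genes in the 7 lists of partners, regulators and targets of the network. Each point is a gene, red points are called, and black bars are list medians; of these 7 lists, the genes repressed by MYC have the highest median at 80 nM, 0.67, and the corepressors of the MXD proteins and MNT the lowest, -0.31. The targets TXNIP and ARRDC4 are not drawn, since ARRDC4 has only a bound at 80 nM.

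The profile of MYC over the 9 arrays was set beside those of 12697 named genes that were well above background on every array. The highest Pearson correlations were those of GUCY1A1 (0.998), a subunit of soluble guanylate cyclase, AUH (0.997), a mitochondrial enzyme of leucine breakdown, OCLN (0.997), the tight junction protein occludin, SLC10A4 (0.997) and NTS (0.997), the precursor of neurotensin. Their changes at 80 nM were -1.94, -1.22, -1.64, -1.67 and -2.52, and at 8 nM they lay between -0.03 and 0.07. The lowest correlations were those of CELF6 (-0.998), the stromelysin MMP3 (-0.997), C9orf78 (-0.996), the DNA glycosylase OGG1 (-0.996) and the autophagy receptor SQSTM1 (-0.996), with changes at 80 nM between 0.61 and 2.98. These values describe the likeness of profiles over 9 arrays that share 3 groups and 2 slides. Among the members, MNT had a correlation of 0.982 with MYC and MXD3 one of -0.971 over the same arrays.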

How the data were processed

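Expression was measured in 9 samples of A2780 cells, 3 per group, grouped and numbered from the labels. Total RNA was labeled with Cy3; the study and the labels name different labeling kits. The authors scanned the arrays and extracted spot values with Feature Extraction 10.7.3.1 and deposited the processed intensity of each spot, which is background-subtracted but not scaled between arrays. A log2 table with 1 value per spot, also deposited by the authors, was used as an alternative. It had correlations of 0.9986 to 0.9998 with the log2 median spot signal and array medians of 6.60 to 6.61. Its normalization is not given in the sources used here. A lowess step that the methods name was not applied here.

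Processed intensities were converted to log2, and the 75th percentile over gene spots was subtracted array by array. Control spots and outlier spots were left out, spots of a probe were averaged, and 0 gene spots were saturated. The filter required 1 or more groups in which each of the 3 arrays had over 50% of a probe's spots well above background; 26457 probes and, by the brightest probe of a gene, 21832 genes passed. Symbols come from RefSeq accessions, which named 25715 of 27245 probes with such an accession. Groups were compared with limma 3.58.1 in R 4.3.3 (lmFit, contrasts, eBayes) over all 9 arrays with Benjamini-Hochberg adjustment, and the procedure was tested on simulated data with 200 changed genes. The study's fold limits of 1.5 and 0.67 were kept, with an adjusted p in place of its unadjusted p. Figures were drawn with matplotlib 3.10.9. The precision is limited by 3 arrays per group; the methods describe the replicates as separate biological samples.

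The members and lists were chosen with earlier results of these data known. Named genes are the members with all their probes and the called genes of each list (the 3 largest where more than 3 were called). The 5 genes with the highest and the 5 with the lowest, most negative correlation with MYC are also named. Of the called list genes, 1 is counted but its own values are not reported here. Deviations of same-numbered untreated and 8 nM arrays had correlations of 0.150, 0.139 and 0.205 over genes. Same-numbered pairs with an 80 nM array ranged from -0.157 to 0.028. Pairs with different numbers ranged from -0.189 to 0.173, so these values cannot decide whether equal numbers mark pairs. The reported fits used no pairing, and the replicate block was an alternative. Alternatives were normexp on the median spot signal (offset 50), quantile, median and spike-in scaling, the deposited log2 table, other filters, the mean or each probe of a gene, only the groups compared, the replicate block, other call rules and each array left out. A replicate block on the slide 1 arrays alone was added after seeing the data.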

Additional observations from a re-analysis of the deposited data

How the results depend on the processing

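The number of members called at 8 nM was 2, and 1 with scaling to the spike-in probes. Between 80 nM and 8 nM it was 4, all lower, and 7 with the adjusted p and no fold limit. Spike-in scaling gave 6, all lower, where 5079 of all 21832 genes were called lower. Median scaling gave 5, with MXD3 higher, and the mean of the probes of a gene gave 5, all lower. At 80 nM the number of members called was 4, and 3 with normexp and with the log2 table of the authors, both without MGA. With each array left out in turn, it was 2 in every case at 8 nM and 4 in every case at 80 nM, and between the concentrations it ranged from 4 to 6, with 6 without replicate 2 at 8 nM. With the replicate block the counts were 2, 4 and 4, and with the block on slide 1 alone the count at 8 nM was 2, so pairing changed no call of a member.

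For single members, 497 of 522 values under other settings or with an array left out kept their direction and their side of the threshold. Among the rest, 4 no longer passed, 4 came to pass and 17 changed sign, of which 14 passed the test neither before nor after. Some settings leave the estimate the same by design, such as the replicate block or an array left out of the group not compared. Values that passed in neither setting also count among the 497. The fold limit was not part of this count. Calls gained or lost only through that limit, such as MGA at 80 nM with normexp, are therefore among the 497 too. At 80 nM the sign changed for MAX (spike-in scaling -0.036, mean of probes -0.0061, probe A_23_P151662 -0.44), MXD1 (spike-in scaling -0.18, mean of probes -0.61, probe A_23_P408094 -1.32, and -0.11 to 0.27 with an array left out, the lowest without replicate 3 at 80 nM), MXI1 (probe A_23_P161399 0.56), MYCL (spike-in scaling -0.18) and MXD4 (spike-in scaling -0.13). At 8 nM it changed for MAX (mean of probes -0.12, probes A_23_P151662 -0.35 and A_23_P436138 -0.11), MXD1 (probe A_23_P408094 -0.081), MXD3 (spike-in scaling 0.0075, mean of probes 0.060, probe A_24_P417706 0.19), MXI1 (probe A_33_P3263902 -0.29, and -0.12 to 0.22 with an array left out) and MNT (quantile normalization 0.018, spike-in scaling 0.029, log2 table of the authors 0.019). Between the concentrations it changed for MAX (spike-in scaling -0.22, probe A_23_P151662 -0.084). The cause was not tested.

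Over all genes, normexp gave 435 up- and 191 down-regulated genes at 8 nM in place of 810 and 309, and 2389 and 2335 at 80 nM in place of 4017 and 3481. Without replicate 1 at 8 nM, 534 genes were down-regulated at 8 nM. With spike-in scaling the down-regulated share of called genes went from 46.4% to 73.4% at 80 nM and from 27.6% to 7.0% at 8 nM. Dim probes limit MYCN and the second MYCL transcript, which were not measurable here.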
